A study of Mus musculus with 12 samples.

Results

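Genes of glycolysis, glycogen metabolism and the hypoxia response were followed in mouse CD8 T cells grown toward a Tc1 or a Tc17 state with and without STAT3. The set was a list of 38 named genes, each taken from an array probe set that carried exactly 1 gene symbol, or from the brightest such probe set where a gene had several. Of the 38 genes, 33 could be matched in this way and 32 were bright enough to be tested, among 22180 genes with 1 symbol and 9862 genes tested on the arrays. The genes not analysed here were Gpi1 and Eno1, for which the annotation used named no probe set, and Aldoa, Bnip3l and Ankrd37, whose probe sets carried several symbols. Ldhb, a lactate dehydrogenase subunit, was matched but too dim to test, with group means between 4.45 and 4.74 on the log2 scale.

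The study used naive CD8 T cells from spleen, wild type (WT) or STAT3-/-. STAT3-/- cells came from Cd4cre+ STAT3fl/fl animals, in which a Cre recombinase driven by Cd4 regulatory sequences removes a floxed Stat3 allele in developing T cells. Cells of both genotypes were mixed in equal parts and activated together for 4 days, using anti-CD3 (1 µg/ml) plus anti-CD28 (3 µg/ml). IL-12 was given for Tc1 and IL-6 with TGFb for Tc17 during 3 days, followed by 1 day in IL-2. Allelic markers then served to sort WT from STAT3-/- cells, so both genotypes of a culture condition had shared their medium. The 4 groups were Tc1 WT, Tc1 STAT3-/-, Tc17 WT and Tc17 STAT3-/-, each with 3 arrays: biological replicates 1 and 2 and a technical replicate numbered 2. Its values were averaged with those of biological replicate 2, which left 2 samples per group. The sources used here do not give the animals' ages, or whether the biological replicates came from separate animals. The p-values therefore measure only how far these samples spread, and that spread may be technical.

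Glycolysis converts glucose to pyruvate in the cytosol, and activated T cells use it heavily, turning much of the pyruvate into lactate. Glycogen is a glucose store that glycogen synthase builds and glycogen phosphorylases break down. HIF1A is the oxygen-regulated subunit of a transcription factor that raises glycolytic and hypoxia-response genes; in oxygen, prolyl hydroxylases of the EGLN family mark it for destruction, and its mRNA level alone does not give its activity. In T cells grown with IL-6 and TGF-beta, STAT3 carries the IL-6 signal and HIF1A has been linked to type 17 differentiation.

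Levels are the deposited values on a log2 scale, so a difference of 1 stands for a doubling of signal, and differences of dim genes are understated. The targeted gene set the genotypes apart: Stat3 lay between 6.99 and 7.93 on the 6 STAT3-/- arrays and between 9.77 and 10.72 on the 6 WT arrays. The 8 matched CD8 T cell markers (Cd8a, Cd8b1, Cd3d, Cd3e, Cd3g, Cd2, Cd5 and Cd28) had group means of 7.83 or more in every group. Between the Tc17 genotypes Cd8a was 0.30 higher and Cd5 differed by -0.33 in STAT3-/- cells (limma adjusted p = 0.0446 and 0.0371). The technical array of Tc17 WT stood farthest apart. Over the tested genes its correlation with each other array had a median of 0.933, so values are also given without it. The same median was 0.961 and 0.962 for the biological arrays of Tc17 WT and 0.977 to 0.986 for the arrays of the other groups. In Tc17, the median of all tested genes was 0.11 higher in STAT3-/- than in WT cells, and it was 0.10 lower in Tc17 WT than in Tc1 WT. In RNA from many cells, a lower level in fewer cells and less RNA in each cell cannot be told apart.

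The regulatory sequences upstream of the 4 genes with the clearest STAT3-related differences, or with a direct role in the HIF pathway, are shown because hypoxia-regulated genes of this list are known for sites that HIF binds. Each line is the 250 bases before the annotated gene start on the gene's own strand (RefSeq, build GRCm38.p6), with the hypoxia response element core (ACGTG or GCGTG, or CACGT and CACGC where it lies on the other strand) in capitals. The windows lie at chr19:6384158-6384407, plus strand, for Pygm; at chr11:70656926-70657175, plus strand, for Eno3; at chr12:73907617-73907866, plus strand, for Hif1a; and at chr12:54203875-54204124, minus strand, for Egln3.
Pygm: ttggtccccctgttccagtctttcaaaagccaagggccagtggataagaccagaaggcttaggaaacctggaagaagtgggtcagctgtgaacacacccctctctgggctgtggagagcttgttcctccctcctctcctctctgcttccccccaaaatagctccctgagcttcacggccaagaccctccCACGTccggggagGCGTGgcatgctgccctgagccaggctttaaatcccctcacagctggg
Eno3: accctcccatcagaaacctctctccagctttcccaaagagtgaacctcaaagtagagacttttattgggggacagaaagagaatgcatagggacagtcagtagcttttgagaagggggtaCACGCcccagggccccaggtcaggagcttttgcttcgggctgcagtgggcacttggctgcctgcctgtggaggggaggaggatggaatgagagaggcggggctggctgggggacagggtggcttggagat
Hif1a: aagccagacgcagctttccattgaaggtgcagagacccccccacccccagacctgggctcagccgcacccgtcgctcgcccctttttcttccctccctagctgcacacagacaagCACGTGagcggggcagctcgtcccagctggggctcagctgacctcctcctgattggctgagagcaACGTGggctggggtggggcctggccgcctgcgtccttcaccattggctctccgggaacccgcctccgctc
Egln3: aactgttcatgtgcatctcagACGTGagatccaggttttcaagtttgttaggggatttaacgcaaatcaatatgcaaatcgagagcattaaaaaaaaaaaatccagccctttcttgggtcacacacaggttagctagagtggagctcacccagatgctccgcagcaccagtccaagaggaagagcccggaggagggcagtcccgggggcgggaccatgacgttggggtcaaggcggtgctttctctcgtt

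Counted from the start, the cores began 61 and 48 bases upstream in Pygm, 130 in Eno3 and 229 in Egln3. In Hif1a a palindrome that holds the core on both strands began 135 bases upstream, and a further core began 70 bases upstream. None of these 4 windows held the letters TTCNNNGAA, the symmetric site bound by STAT proteins. Both motifs were searched on both strands in all 46 start windows of the 33 matched genes. The hypoxia core was present in 35 windows (76.1%), against 38.6% of 32851 mouse promoter windows of the same length, and the STAT site in 2 windows (4.35%) against 7.02%. Hypoxia cores contain CG, and the windows of these genes were also richer in G and C, with a median of 60.0% against 52.4%; the part of base composition in the difference was not tested. A match of so few letters describes the window and does not show that a factor bound there.

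Loss of STAT3 in Tc17 cells went with higher Pygm and Eno3, muscle forms of their enzymes, and lower Hif1a on its brighter probe set. Of the 32 tested genes, 8 passed the threshold (limma, Benjamini-Hochberg adjusted p below 0.05 over all 9862 genes tested), which is 25.0% and near the 25.1% of all tested genes that passed. Pygm, Eno3, Pfkm and Ldha were higher in STAT3-/- Tc17 cells, 4 of 32 against 18.2% of all genes higher. Hif1a, P4ha2, Egln3 and Hk2 were lower, 4 of 32 against 6.83% of all genes lower. The median difference over the 32 genes was 0.08, beside 0.11 over all genes. This contrast and the contrast of Tc17 WT with Tc1 WT share the Tc17 WT samples, so their values are given side by side and were not counted as separate evidence.

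**Figure D1:**
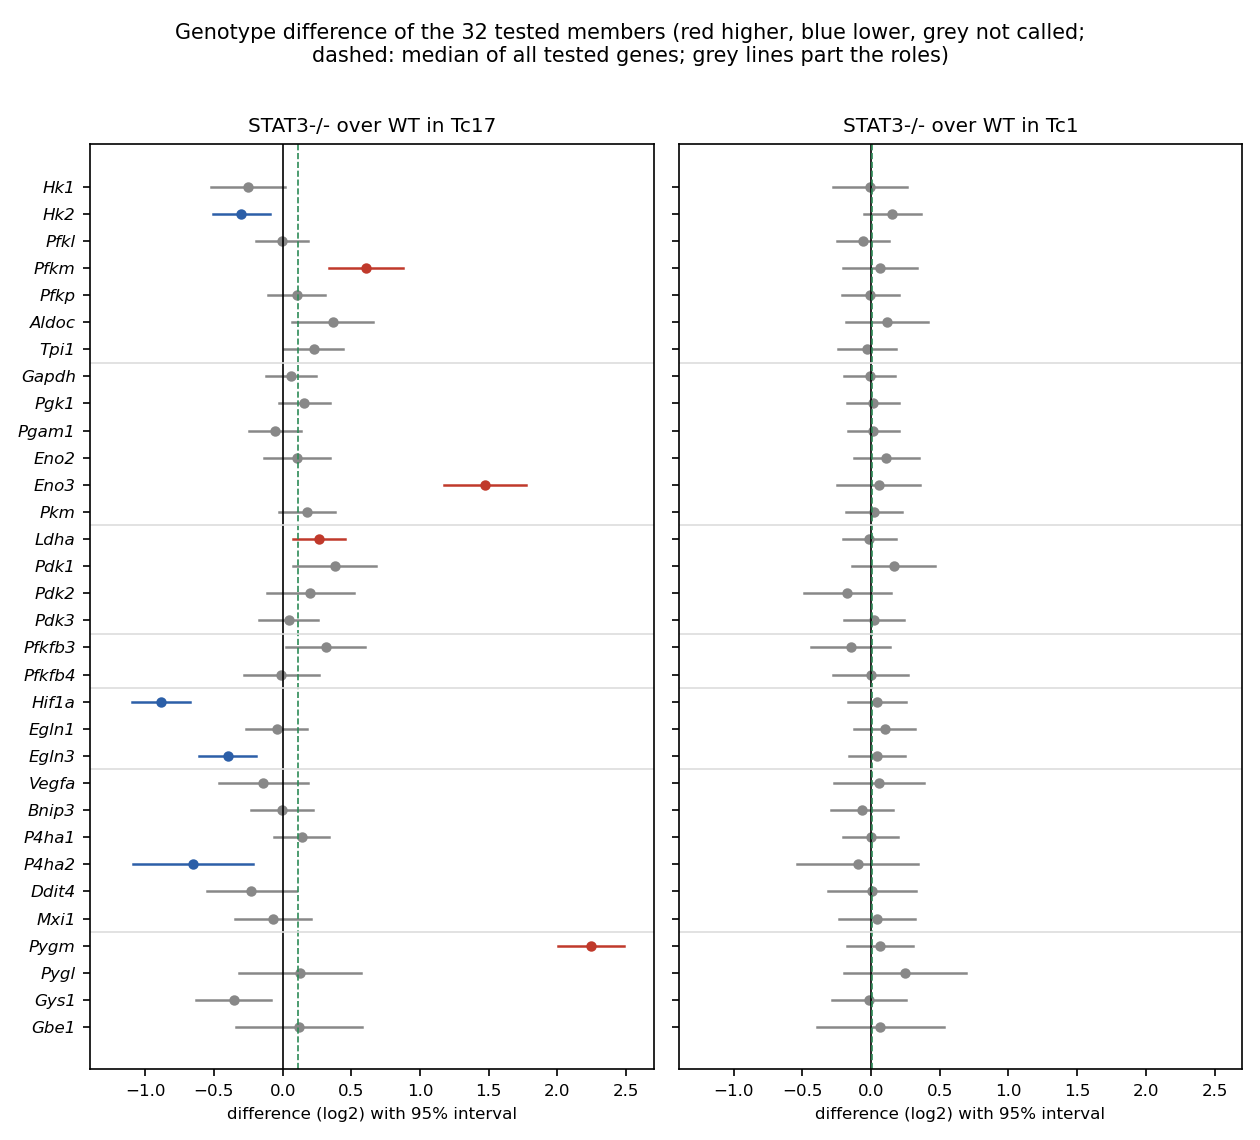
Difference between STAT3-/- and WT cells on the log2 scale (horizontal axis, with 95% intervals) for the 32 tested genes (vertical axis, ordered by role), in Tc17 and in Tc1 cells; red genes were higher, blue lower and grey not past the threshold, and the dashed line is the median of all tested genes. Pygm at 2.25, Eno3 at 1.47 and Hif1a at -0.89 lie farthest from 0 in Tc17, while in Tc1 the points lie between -0.17 and 0.24.

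Among the glycogen genes, Pygm, the muscle form of glycogen phosphorylase, gave the largest difference of the set. Its levels on biological arrays 1 and 2 and the technical array were 4.87, 4.80 and 5.12 in Tc17 WT and 7.07, 7.16 and 7.34 in Tc17 STAT3-/-. They were 6.85, 6.99 and 7.13 in Tc1 WT and 7.00, 6.71 and 7.38 in Tc1 STAT3-/-. The 3 Tc17 WT arrays were the low ones, below all 9 arrays of the other groups, which overlapped each other. The means were 4.91 ± 0.06 in Tc17 WT and 7.16 ± 0.12 in Tc17 STAT3-/- (SD, n = 2 samples), a difference of 2.25 ± 0.11 (SE) or 4.75-fold (limma adjusted p = 4.71e-06). Pygm ranked 9th from the highest among the 9862 genes by this difference. Tc17 WT relative to Tc1 WT was at -2.04 ± 0.11 (adjusted p = 5.81e-06). Since the Tc17 WT mean was under 5, the level used to set dim genes aside, these folds may be understated, as for other dim values. The genotype difference was 2.33 once the Tc17 WT technical array was left out (adjusted p = 4.19e-06).

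Of the other 3 tested glycogen genes of the set, none passed the threshold between the Tc17 genotypes. Gys1, glycogen synthase, read 9.23, 9.21 and 8.76 in Tc17 WT, 8.70, 8.81 and 8.81 in Tc17 STAT3-/-, 8.83, 8.84 and 8.39 in Tc1 WT, and 8.77, 8.73 and 8.56 in Tc1 STAT3-/-. Both biological arrays of Tc17 WT were above all others, and its technical array was within the range of the other groups. Gys1 was higher in Tc17 WT than in Tc1 WT by 0.39 ± 0.12 (limma adjusted p = 0.0442) and 0.36 lower in STAT3-/- than in WT Tc17 cells, which missed the threshold (adjusted p = 0.0576). Both differences passed without the Tc17 WT technical array, at 0.50 (adjusted p = 0.00701) and -0.47 (adjusted p = 0.00920). The call against Tc1 WT was lost without every sample but Tc17 WT replicate 2, at differences of 0.26 to 0.49 and adjusted p from 0.0549 to 0.228. Pygl, the liver phosphorylase, and Gbe1, the branching enzyme, differed between the Tc17 genotypes by 0.12 each, with adjusted p of 0.663 and 0.694, and 95% intervals that reached from -0.34 to 0.58 over the pair.

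The listed genes of the upper steps, from hexokinase to triose phosphate isomerase, gave 1 higher and 1 lower of 7 tested in Tc17 STAT3-/- cells. Over all genes, 18.2% were higher and 6.83% lower. Pfkm, the muscle phosphofructokinase, read 6.45, 6.46 and 6.06 in Tc17 WT, 6.86, 7.13 and 6.98 in Tc17 STAT3-/-, 6.87, 6.86 and 6.55 in Tc1 WT, and 6.95, 6.63 and 6.88 in Tc1 STAT3-/-. Each Tc17 WT array was below the 9 arrays of the other groups. The rise without STAT3 was 0.61 ± 0.12 or 1.52-fold (limma adjusted p = 0.00732), and 0.51 without the Tc17 WT technical array (adjusted p = 0.00927). Leaving out Tc17 STAT3-/- replicate 2 ended that call at 0.51 (adjusted p = 0.0710). In WT cells Pfkm was 0.43 ± 0.12 lower in Tc17 than in Tc1 (adjusted p = 0.0294), a call that was lost without Tc1 WT replicate 1 (-0.35), Tc1 WT replicate 2 (-0.51) or Tc17 WT replicate 2 (-0.34), with adjusted p from 0.0595 to 0.178.

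Hk2, an inducible hexokinase that traps glucose inside the cell, moved the other way. It read 9.26, 9.17 and 9.05 in Tc17 WT, 8.86, 8.95 and 8.87 in Tc17 STAT3-/-, 8.81, 8.82 and 8.94 in Tc1 WT, and 9.03, 9.00 and 8.95 in Tc1 STAT3-/-. The Tc17 WT arrays were the 3 highest of the 12. Hk2 fell by 0.30 ± 0.09 or 1.23-fold in STAT3-/- Tc17 cells (limma adjusted p = 0.0430) and was 0.34 ± 0.09 higher in Tc17 WT than in Tc1 WT (adjusted p = 0.0279). The genotype call was lost without every sample but Tc17 WT replicate 2, at differences from -0.32 to -0.22 and adjusted p from 0.0562 to 0.214. The call between culture conditions was lost without either Tc1 WT replicate, Tc17 WT replicate 1 or either Tc17 STAT3-/- replicate, at 0.26 to 0.37 and adjusted p from 0.0583 to 0.163. Without the Tc17 WT technical array both differences passed, at -0.33 (adjusted p = 0.0153) and 0.37 (adjusted p = 0.00970).

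The remaining 5 tested genes of the upper steps were Hk1, a constitutive hexokinase, the phosphofructokinases Pfkl and Pfkp, the aldolase Aldoc and the isomerase Tpi1. In Tc17 cells their genotype differences ran from -0.25 in Hk1 to 0.36 in Aldoc, with limma adjusted p of 0.0721 or more. Hk1 was the exception once the Tc17 WT technical array was left out, when it was 0.33 lower in STAT3-/- Tc17 cells (adjusted p = 0.0247). The level of Pfkl was 9.08 in both Tc17 genotypes, and the 95% interval of its difference was -0.19 to 0.19.

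In the lower steps, from glyceraldehyde phosphate dehydrogenase to pyruvate kinase, 1 of 6 tested genes rose and none fell in Tc17 cells without STAT3. Over all genes, 18.2% rose and 6.83% fell. Eno3, the muscle enolase, read 7.88, 8.02 and 8.28 in Tc17 WT and 9.39, 9.39 and 9.79 in Tc17 STAT3-/-. In Tc1 cells it read 8.59, 8.55 and 8.83 in WT and 8.56, 8.45 and 9.22 in STAT3-/-. The Tc17 WT arrays were below, and the Tc17 STAT3-/- arrays above, all 6 Tc1 arrays. Eno3 rose by 1.47 ± 0.13 or 2.78-fold in Tc17 cells without STAT3 (limma adjusted p = 0.000132), ranked 41st from the highest among 9862 genes, and the rise was 1.54 without the Tc17 WT technical array (adjusted p = 7.59e-05). It was 0.63 ± 0.13 lower in Tc17 WT than in Tc1 WT (adjusted p = 0.0100), a call lost without Tc1 WT replicate 2 (-0.58, adjusted p = 0.0608) and with each array's median of tested genes removed (-0.51, adjusted p = 0.0502).

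The other lower-step genes were Gapdh, Pgk1, Pgam1, Eno2 and Pkm. Their Tc17 genotype differences lay between -0.06 and 0.18 (limma adjusted p from 0.184 to 0.638), with 95% intervals from -0.24 to 0.38 over the 5 genes. Gapdh, the abundant dehydrogenase of this step, was at 12.58 ± 0.02 in Tc17 WT and 12.65 ± 0.02 in Tc17 STAT3-/-, and its other probe sets with 1 symbol did not pass the threshold either. Pgk1, which makes ATP, was at 11.85 ± 0.02 and 12.004 ± 0.02, a difference of 0.16 with a 95% interval of -0.03 to 0.34. Eno2, the neuronal enolase, was dim in every group, with means from 4.89 to 5.01.

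**Figure D2:**
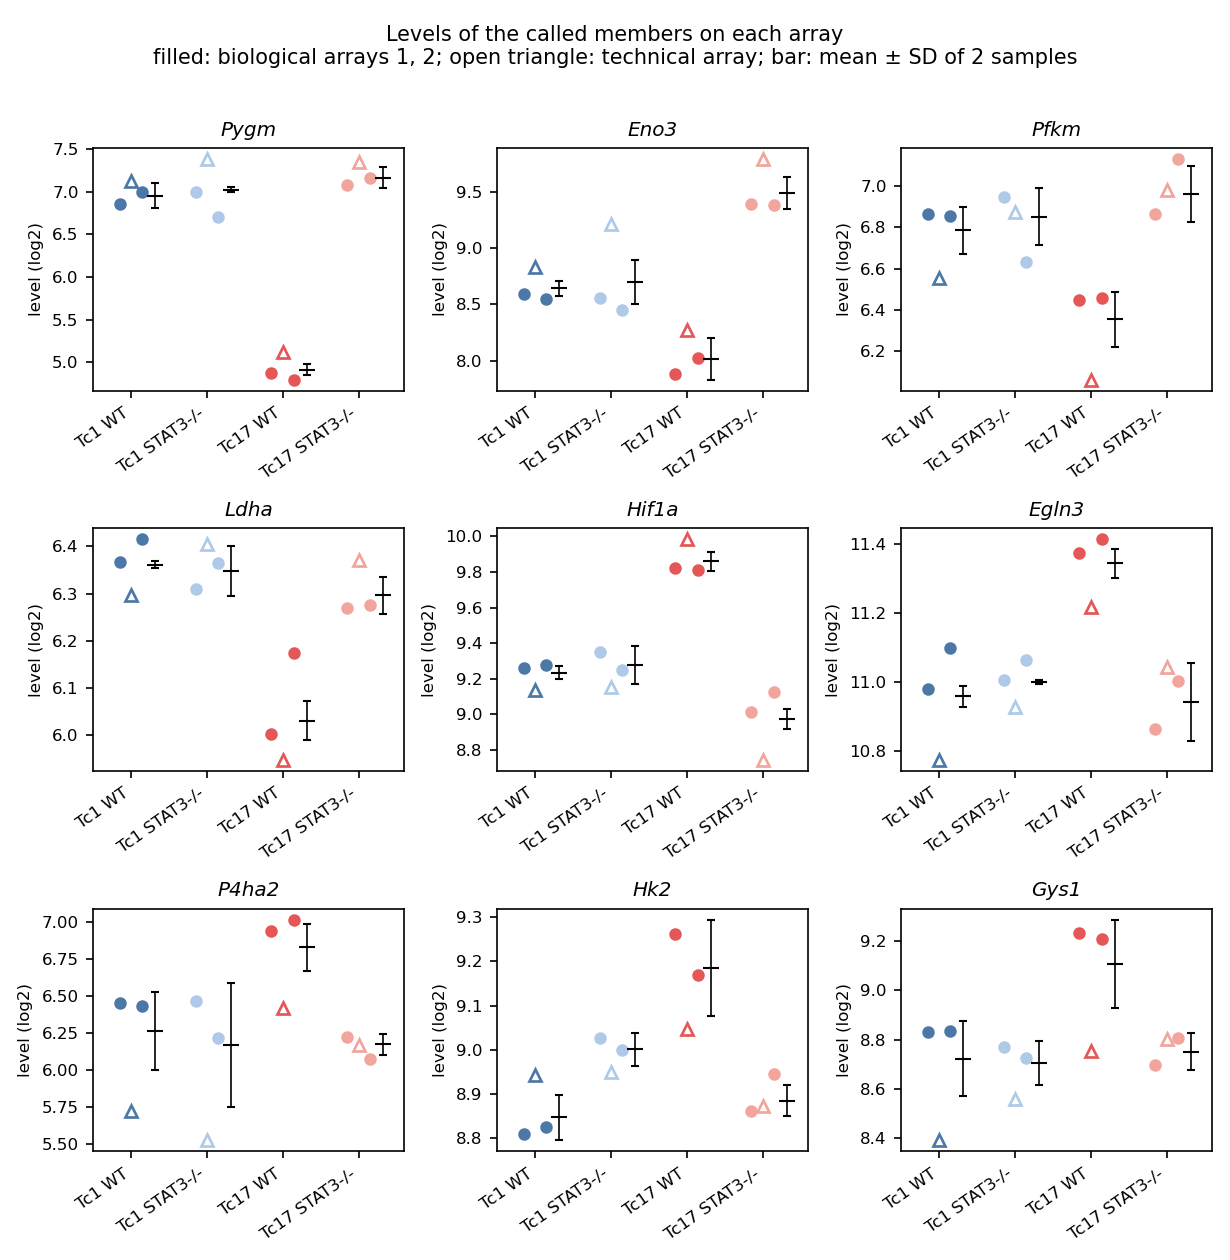
Levels (log2) of the 9 genes that passed the threshold in at least 1 contrast, on each of the 12 arrays; filled points are biological arrays, open triangles technical arrays, and bars the mean ± SD of 2 samples per group. Tc17 WT (4.91 for Pygm, 8.02 for Eno3) is the low group for Pygm, Eno3, Pfkm and Ldha. It is the high group, at 9.86, for Hif1a on its brighter probe set.

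Because Pygm, Eno3 and Pfkm are known as muscle forms, markers of skeletal muscle were read beside them. Of 6 such markers (Ckm, Acta1, Myh4, Tnnt3, Mb and Actn3), 2 had a mean above 5 in each group and neither passed the threshold in any contrast. Myh4, a fast myosin, had means of 3.62 (Tc17 WT) and 3.45 (Tc17 STAT3-/-). Summed levels in this paragraph add log2 values and are not amounts of RNA. The summed level of the 6 muscle markers was 28.3 to 29.2 over the Tc17 WT arrays and 26.9 to 28.0 over the Tc17 STAT3-/- arrays. Neither tested marker passed, and the part of muscle RNA in the Pygm difference was not tested. Of 5 matched B cell markers, 2 were above 5 in each group: Ighm was 1.77 ± 0.10 (adjusted p = 8.95e-06) and Cd79b 0.78 ± 0.11 (adjusted p = 0.00183) higher in Tc17 STAT3-/- than in Tc17 WT. The size of the Ighm difference depended on the processing, from 0.52 to 1.87 over 22 alternatives. Cd79a, Ms4a1 and Pax5 averaged between 2.37 and 4.13 in all groups. Their means were 3.89, 2.51 and 3.97 in Tc17 WT and 3.81, 2.37 and 3.97 in Tc17 STAT3-/-. The summed B cell level was 26.1 to 26.5 in Tc17 WT and 28.5 to 28.8 in Tc17 STAT3-/-, with 27.5 to 27.6 in Tc1 WT and 27.6 to 28.2 in Tc1 STAT3-/-, and its part in the Pygm and Eno3 differences was not tested. Of 6 myeloid markers, Cd68 alone was above 5, and it was 1.12 ± 0.11 lower in Tc17 STAT3-/- than in Tc17 WT (adjusted p = 0.000243), with summed levels of 23.8 to 24.0 and 24.4 to 26.4; its part in the Hif1a difference was not tested. Lyz2 and Csf1r, defining myeloid genes, averaged between 3.29 and 4.24 in all groups. Of 3 matched NK cell markers, Eomes, a transcription factor that activated CD8 T cells also express, was the 1 tested. It was 0.67 ± 0.16 higher in Tc17 STAT3-/- than in Tc17 WT (adjusted p = 0.0174) and at -1.58 ± 0.16 in Tc17 WT relative to Tc1 WT (adjusted p = 0.000287). These contrasts share the Tc17 WT samples, and in them Pygm, Eno3 and Pfkm had the same directions. In Tc17 relative to Tc1 STAT3-/- cells Eomes was at -0.92 (limma adjusted p = 0.0219), with Eno3 at 0.79 and Pfkm at 0.11. Pygm means there were 7.16 in Tc17 and 7.02 in Tc1. The summed NK level was 10.2 to 10.7 in Tc17 WT, 10.8 to 10.9 in Tc17 STAT3-/-, 11.3 to 12.04 in Tc1 WT and 11.5 to 11.8 in Tc1 STAT3-/-. Its part in the Pygm, Eno3 and Pfkm differences was not tested. Ncr1 and Klrb1c, defining NK genes, averaged between 1.85 and 3.42 in all groups.

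For the fate of pyruvate, Ldha, the lactate dehydrogenase subunit that favours lactate, read 6.002, 6.17 and 5.95 in Tc17 WT, 6.27, 6.28 and 6.37 in Tc17 STAT3-/-, 6.37, 6.41 and 6.30 in Tc1 WT, and 6.31, 6.37 and 6.40 in Tc1 STAT3-/-. The 3 Tc17 WT arrays were the lowest of the 12. Ldha had 1 probe set with 1 symbol, and its group means were 6.03 to 6.36. Those of Gapdh, Pgk1 and Pkm were 11.81 to 12.65, and which transcripts the Ldha probe set reads was not tested. The rise of 0.27 ± 0.08 in Tc17 cells without STAT3 sat at the threshold (limma adjusted p = 0.0499). Without the Tc17 WT technical array it was 0.21 (adjusted p = 0.104), and leaving out any of the 8 samples in turn gave 0.24 to 0.29 with adjusted p from 0.0609 to 0.249. The lower level in Tc17 WT than in Tc1 WT, -0.33 ± 0.08 (adjusted p = 0.0225), was lost without either Tc1 WT replicate or either Tc17 STAT3-/- replicate, at -0.34 to -0.32 and adjusted p from 0.0505 to 0.120. Pdk1, Pdk2 and Pdk3, kinases that close the pyruvate dehydrogenase gate to mitochondria, were 0.38, 0.20 and 0.04 higher in STAT3-/- Tc17 cells, with adjusted p of 0.0667, 0.310 and 0.767.

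Pfkfb3 and Pfkfb4 set the level of fructose 2,6-bisphosphate, the activator of phosphofructokinase. Neither passed the threshold between the Tc17 genotypes, with differences of 0.32 ± 0.13 (limma adjusted p = 0.101) and -0.01 ± 0.12 (adjusted p = 0.955). The 95% intervals of -0.28 to 0.26 for Pfkfb4 and 0.03 to 0.60 for Pfkfb3 were per gene and not adjusted for the number of genes.

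Of the probe sets that name Hif1a, 1 carried several symbols and was not analysed. The other 2 carried 1 symbol, and their values are given in turn. The brighter one read 9.82, 9.81 and 9.98 in Tc17 WT, 9.01, 9.12 and 8.74 in Tc17 STAT3-/-, 9.26, 9.28 and 9.14 in Tc1 WT, and 9.35, 9.25 and 9.15 in Tc1 STAT3-/-. The Tc17 WT arrays were above, and the Tc17 STAT3-/- arrays below, every Tc1 array. On this probe set Hif1a fell by 0.89 ± 0.09 or 1.85-fold in Tc17 cells without STAT3 (limma adjusted p = 0.000345), ranked 194th from the lowest among 9862 genes, and was 0.63 ± 0.09 higher in Tc17 WT than in Tc1 WT (adjusted p = 0.00202). Without the Tc17 WT technical array these were -0.84 (adjusted p = 0.000251) and 0.58 (adjusted p = 0.00170).

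The dimmer Hif1a probe set read 5.45, 6.22 and 6.29 in Tc17 WT, 5.93, 5.99 and 6.20 in Tc17 STAT3-/-, 6.35, 6.12 and 5.80 in Tc1 WT, and 6.47, 6.43 and 6.10 in Tc1 STAT3-/-. The arrays of the 4 groups overlapped, and the 3 Tc17 WT arrays were spread over 0.83. With every such probe set fitted on its own, its Tc17 genotype difference was 0.16 ± 0.24 (limma adjusted p = 0.650). Its difference between Tc17 WT and Tc1 WT was -0.30 ± 0.24 (limma adjusted p = 0.378), opposite in sign to that of the brighter probe set. Averaging both probe sets into 1 value gave -0.36 (adjusted p = 0.105), which ended the Hif1a call. Which transcripts each probe set reads is not stated in the labels or files.

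**Figure D3:**
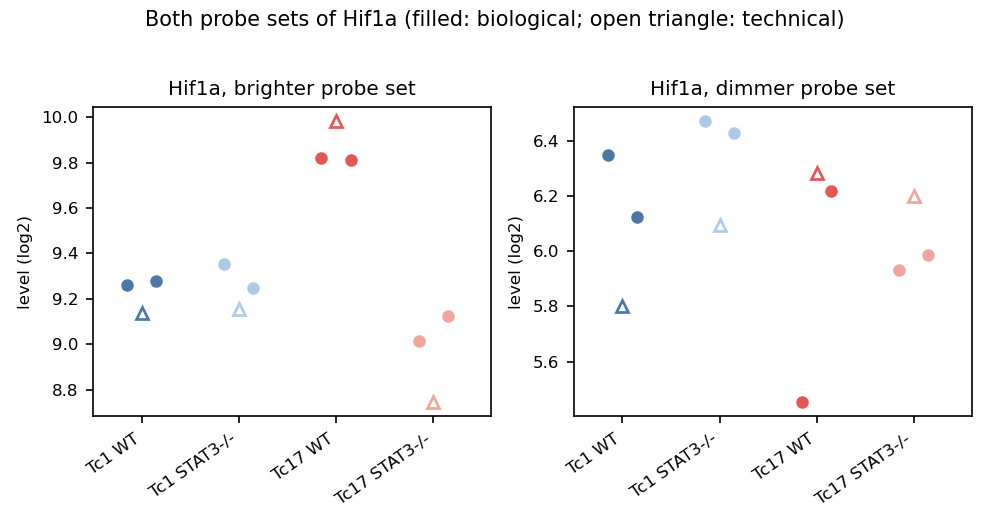
Levels (log2) of both probe sets of Hif1a on each array; filled points are biological and open triangles technical arrays, and the panels have separate vertical scales. On the brighter probe set (left) the Tc17 WT arrays lie between 9.81 and 9.98, above the other groups; on the dimmer one (right) they lie between 5.45 and 6.29 and overlap them.

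Of the prolyl hydroxylases in the set, Egln3 passed the threshold between the Tc17 genotypes and Egln1 did not; a test between the genes was not made. Egln3, a hypoxia-inducible member that marks HIF for destruction, read 11.37, 11.41 and 11.22 in Tc17 WT, 10.86, 11.00 and 11.04 in Tc17 STAT3-/-, 10.98, 11.10 and 10.77 in Tc1 WT, and 11.00, 11.06 and 10.93 in Tc1 STAT3-/-. The 3 Tc17 WT arrays were the highest of the 12. Egln3 fell by 0.40 ± 0.09 or 1.32-fold in Tc17 cells without STAT3 (limma adjusted p = 0.0133) and was 0.39 ± 0.09 higher in Tc17 WT than in Tc1 WT (adjusted p = 0.0158). The genotype call did not survive leaving out Tc17 STAT3-/- replicate 1 (-0.32, adjusted p = 0.129), nor did the other on leaving out either Tc1 WT replicate (0.41 and 0.36, adjusted p = 0.0735 and 0.0909). The differences without the Tc17 WT technical array were -0.45 (adjusted p = 0.00487) and 0.43 (adjusted p = 0.00581). Egln1, the main oxygen-sensing hydroxylase, was at 9.74 ± 0.01 in Tc17 WT and 9.70 ± 0.03 in Tc17 STAT3-/-, a difference of -0.04 with a 95% interval of -0.26 to 0.18.

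Of the 6 tested genes known to be induced by hypoxia, 1 fell and none rose in Tc17 cells without STAT3. Over all genes, 6.83% fell and 18.2% rose. P4ha2, a collagen prolyl hydroxylase subunit, read 6.94, 7.02 and 6.42 in Tc17 WT, 6.23, 6.08 and 6.17 in Tc17 STAT3-/-, 6.45, 6.44 and 5.73 in Tc1 WT, and 6.47, 6.22 and 5.53 in Tc1 STAT3-/-. The Tc17 genotypes did not overlap, but both Tc1 groups spread widely through their technical arrays. P4ha2 fell by 0.65 ± 0.19 or 1.57-fold (limma adjusted p = 0.0379), and by 0.80 without the Tc17 WT technical array (adjusted p = 0.0159). Leaving out any of the 4 Tc17 samples ended the call, at -0.77 to -0.54 with adjusted p from 0.0715 to 0.170. The other tested genes were Vegfa, an angiogenic factor, Bnip3, a mitophagy receptor, and P4ha1, a further collagen prolyl hydroxylase subunit, with Ddit4 and Mxi1. Ddit4 inhibits mTORC1 signalling and Mxi1 is a MYC antagonist. Between the Tc17 genotypes these genes ran from -0.23 in Ddit4 to 0.14 in P4ha1, with adjusted p of 0.265 or more.

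**Figure D4:**
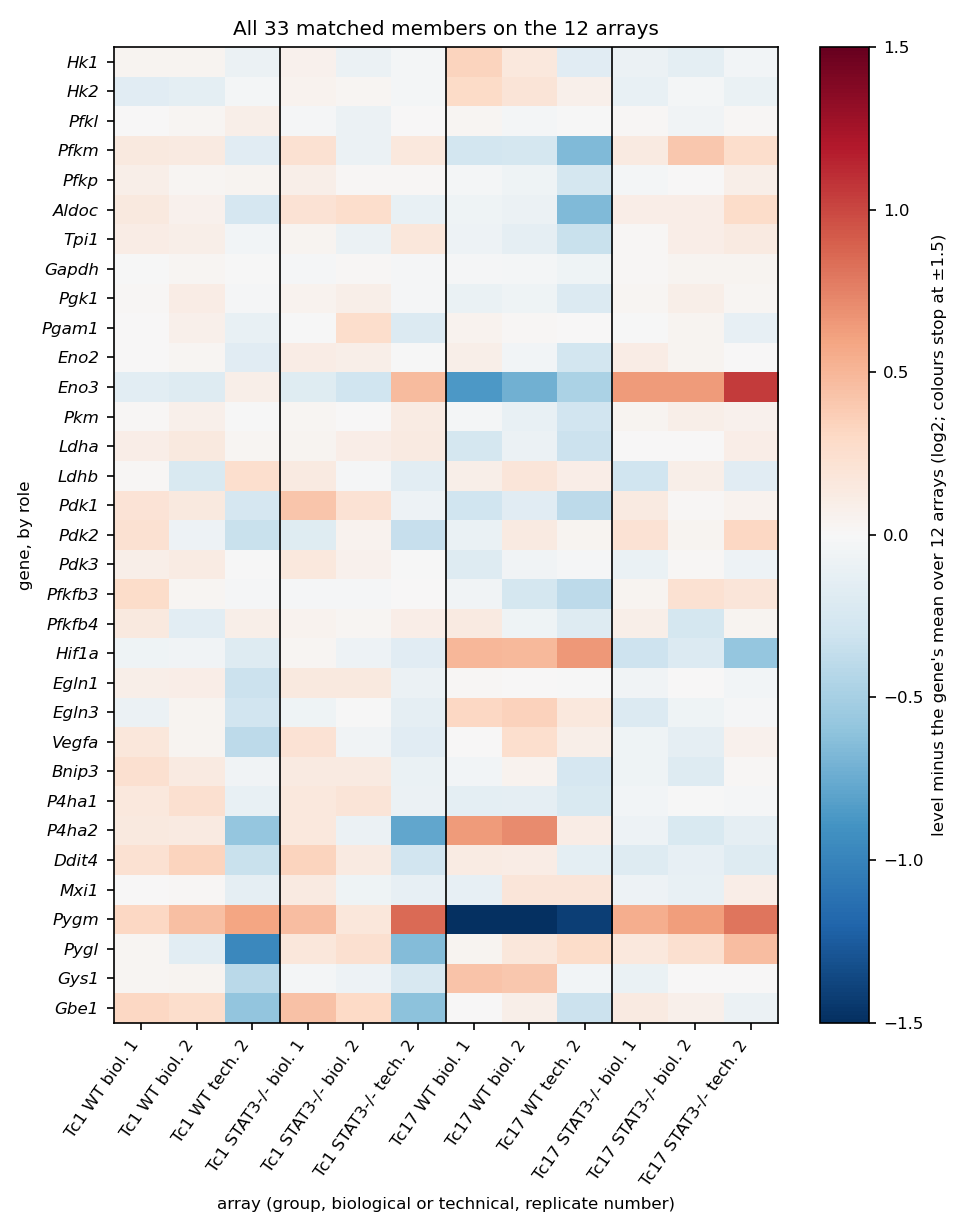
Level of each of the 33 matched genes (vertical axis, by role) on the 12 arrays (horizontal axis, by group), as the difference from the gene's mean over all arrays on the log2 scale; colours stop at 1.5 above or below. The blue Tc17 WT cells of Pygm, 4.80 to 5.12 in level, are the strongest pattern, and the technical columns differ from their biological neighbours across many genes.

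In Tc1 cells the genotype difference was not detectable in any of the 32 tested genes. None passed the threshold (limma, adjusted p = 0.998 for each), against 0.0608% of all genes (6 of 9862), and none had an unadjusted p below 0.05, against 370 of all genes. The differences ran from -0.17 to 0.24, and the 95% intervals of single genes together spanned -0.54 to 0.69. For Pygm the difference was 0.07, with an interval of -0.17 to 0.31. For Eno3 it was 0.06, with an interval of -0.24 to 0.36, and for Hif1a it was 0.04, with an interval of -0.17 to 0.25.

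The test of the difference between these effects, the genotype difference in Tc17 minus that in Tc1, passed for 3 of 32 genes (9.38%, against 6.85% of all genes). It was 2.18 ± 0.15 for Pygm (limma adjusted p = 0.000132), 1.42 ± 0.19 for Eno3 (adjusted p = 0.00342) and -0.93 ± 0.13 for Hif1a (adjusted p = 0.00499). For the other 5 genes called between the Tc17 genotypes the same test missed the threshold: Hk2 at -0.45 (adjusted p = 0.0740), Egln3 at -0.44 (adjusted p = 0.0766), Pfkm at 0.54 (adjusted p = 0.0932), Ldha at 0.28 (adjusted p = 0.197) and P4ha2 at -0.56 (adjusted p = 0.252). Without the Tc17 WT technical array 5 genes passed, while the share of all genes rose to 8.62%, with Hk2 at -0.48 (adjusted p = 0.0303) and Egln3 at -0.49 (adjusted p = 0.0335) joining the 3 above.

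Between the culture conditions, 8 of 32 genes passed in WT cells (25.0%, against 25.0% of all genes). Hif1a, Gys1, Egln3 and Hk2 were higher in Tc17 WT than in Tc1 WT, 4 of 32 against 7.01% of all genes, and Pygm, Eno3, Pfkm and Ldha were lower, 4 of 32 against 18.0%. The Hif1a call was made on its brighter probe set, and the dimmer one did not pass. P4ha2 and P4ha1 came near the threshold, at 0.56 (limma adjusted p = 0.0632) and -0.27 (adjusted p = 0.0515). In STAT3-/- cells 1 of 32 passed (3.12%, against 2.07% of all genes): Eno3 was 0.79 ± 0.13 higher in Tc17 than in Tc1 (adjusted p = 0.0171), the opposite sign to its difference in WT cells. Leaving out any of 3 samples ended that call: Tc1 STAT3-/- replicate 1 (0.65, adjusted p = 0.140), Tc17 STAT3-/- replicate 1 (0.89, adjusted p = 0.0614) or Tc17 STAT3-/- replicate 2 (0.69, adjusted p = 0.190). Pygm differed by 0.14 between the STAT3-/- groups (adjusted p = 0.735), with a 95% interval of -0.10 to 0.38. Hif1a was 0.30 lower in Tc17 than in Tc1 STAT3-/- cells and missed the threshold (adjusted p = 0.213), although the arrays of these groups did not overlap.

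The other genes of these pathways were read from 8 lists, some of which share genes with each other and with the set above. Beside 6.83% of all genes, 1 of 7 tested glucose and lactate transporters fell in Tc17 cells without STAT3. This was Slc2a6, a glucose transporter family member of endosomes and lysosomes, with means of 5.98 ± 0.20 in Tc17 WT, 5.04 ± 0.04 in Tc17 STAT3-/-, 4.67 ± 0.18 in Tc1 WT and 4.79 ± 0.02 in Tc1 STAT3-/- (SD, n = 2). It differed by -0.94 ± 0.12 between the Tc17 genotypes (limma adjusted p = 0.000998) and by 1.31 ± 0.12 between Tc17 WT and Tc1 WT (adjusted p = 0.000167). The main glucose carriers of T cells, Slc2a1 and Slc2a3, and the lactate exporter Slc16a3 differed by -0.05, 0.27 and 0.08 between the Tc17 genotypes, with adjusted p of 0.737, 0.261 and 0.606.

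Among 27 tested hypoxia targets outside the main set, except Tpi1, which is in both, 1 rose and 5 fell in Tc17 cells without STAT3, with a median difference of -0.12 beside 0.11 for all genes, of which 18.2% rose and 6.83% fell. Adm, a vasodilator peptide, was at 7.12 ± 0.18 in Tc17 WT and 5.17 ± 0.06 in Tc17 STAT3-/-, and at 5.29 ± 0.39 in Tc1 WT and 5.05 ± 0.67 in Tc1 STAT3-/-. Its arrays ran from 6.65 to 7.33 in Tc17 WT and from 4.23 to 5.57 over the other groups. Adm fell by 1.95 ± 0.28 in Tc17 (limma adjusted p = 0.00175). Nos2, the inducible nitric oxide synthase, and Rora, a nuclear receptor that also drives type 17 genes, fell by 0.95 ± 0.16 (adjusted p = 0.00337) and by 0.96 ± 0.13 (adjusted p = 0.00141). In WT cells these 3 genes were higher in Tc17 than in Tc1, by 1.83, 1.47 and 0.97 (adjusted p = 0.00238, 0.000385 and 0.00135). Of the 27 genes, 6 were higher and 1 lower there, against 7.01% and 18.0% of all genes. Chosen after their values were seen, the remaining calls between the Tc17 genotypes were Bhlhe40 at -0.32, Hilpda at -0.40 and Stc2 at 0.71 (adjusted p = 0.0420, 0.0454 and 0.0377). Without the Tc17 WT technical array Hilpda was at -0.37 and Stc2 at 0.46, and both missed the threshold (adjusted p = 0.0540 and 0.0931).

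**Figure D5:**
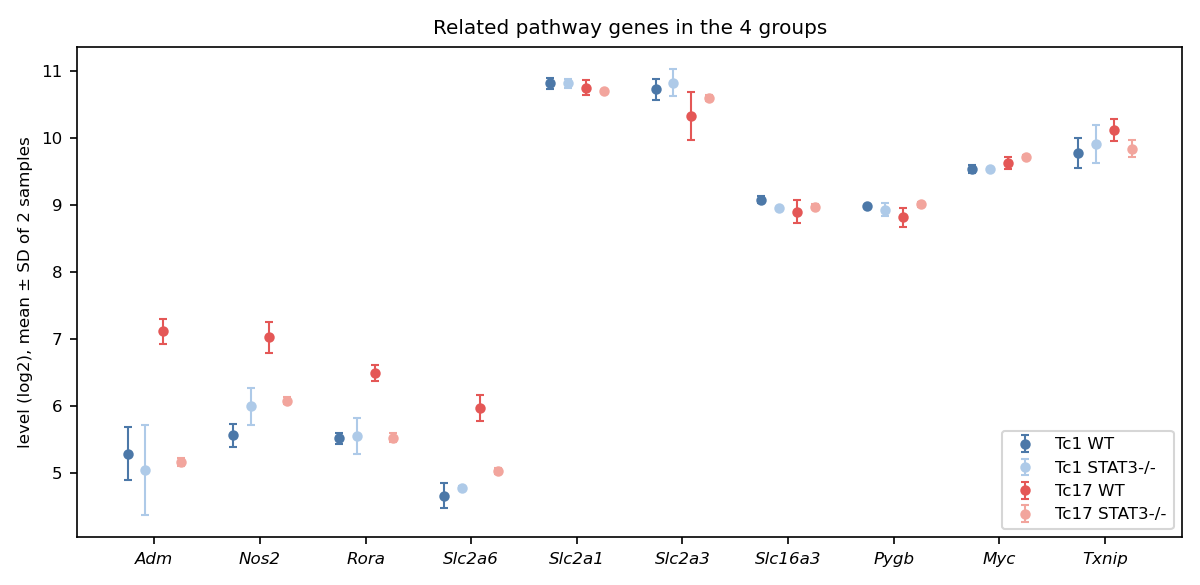
Levels (log2, mean ± SD of 2 samples) of related pathway genes in the 4 groups. Adm, Nos2, Rora and Slc2a6 have their highest means in Tc17 WT (7.12 for Adm, 5.98 for Slc2a6), and for Slc2a1, Slc2a3, Slc16a3, Pygb, Myc and Txnip no contrast between groups passed the threshold.

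The regulators of HIF moved in both directions. Of 14 tested, 3 rose and 2 fell in Tc17 cells without STAT3, against 18.2% and 6.83% of all genes. With each array's median of tested genes removed, or with cyclic loess, 2 rose and 2 fell. The names were chosen after the values were seen. Cited2, which competes with HIF1A for the coactivators EP300 and CREBBP, rose by 0.72 ± 0.10 (limma adjusted p = 0.00130). Hif1an, the asparagine hydroxylase that blocks coactivator binding, rose by 0.64 ± 0.09 (adjusted p = 0.00183). Eloc, a subunit of the VHL ubiquitin ligase, rose by 0.39 (adjusted p = 0.0254), but by 0.18 without the Tc17 WT technical array (adjusted p = 0.340). Ep300 fell by 0.49 (adjusted p = 0.00544) and Hif3a, a HIF family member with inhibitory forms, by 0.47 (adjusted p = 0.0230). Cited2, Hif1an and Eloc were lower in Tc17 WT than in Tc1 WT, at -0.95, -0.66 and -0.54 (adjusted p = 0.000300, 0.00157 and 0.00642). With the Tc17 WT technical array left out, Eloc was at -0.33 there and missed the threshold (adjusted p = 0.0897). The test of the genotype difference in Tc17 minus that in Tc1 passed for Cited2 at 0.87 (adjusted p = 0.00842) and for Hif1an at 0.52 (adjusted p = 0.0491). Without the Tc17 WT technical array the Hif1an value was 0.37 and missed the threshold (adjusted p = 0.112). Epas1, Arnt and Vhl differed by 0.00, 0.15 and -0.13 between the Tc17 genotypes, with adjusted p of 0.986, 0.263 and 0.431.

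Of 12 further glycogen genes tested, 2 rose and 1 fell in Tc17 cells without STAT3, against 18.2% and 6.83% of all genes. Phka2 and Phkb are subunits of phosphorylase kinase, the enzyme that activates glycogen phosphorylase. They rose by 0.54 ± 0.10 and 0.53 ± 0.10 (limma adjusted p = 0.00580 and 0.00541) and were lower in Tc17 WT than in Tc1 WT, at -0.54 and -0.36 (adjusted p = 0.00580 and 0.0296). The Phkb call between Tc17 WT and Tc1 WT was lost under 14 of 22 alternatives, among them leaving out the Tc17 WT technical array (-0.27, adjusted p = 0.0892). Ppp1r3b, which targets a phosphatase to glycogen, fell by 0.69 ± 0.17 (adjusted p = 0.0193). Its difference ran from -0.83 to -0.43 over 22 alternatives, and the call was lost under 5 of them, including the averaging of probe sets. Pygb, the brain form of glycogen phosphorylase, was at 8.82 ± 0.14 in Tc17 WT and 9.01 ± 0.03 in Tc17 STAT3-/- and did not pass (adjusted p = 0.186). Apart from Pygb, these names were chosen after the values were seen.

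In other branches of glucose use, 2 of 9 further glycolysis and sugar entry genes, 1 of 8 pentose phosphate genes and 2 of 9 pyruvate dehydrogenase genes rose in Tc17 cells without STAT3, and none of these 3 lists had a member that fell. Chosen after the values were seen, these were Pgm2, a phosphopentomutase, at 0.72 (limma adjusted p = 0.000888), Pck2, the mitochondrial PEP carboxykinase, at 0.48 (adjusted p = 0.0455), Rpia, a pentose phosphate isomerase, at 0.61 (adjusted p = 0.0110), and Pdhb and Pdhx, subunits of pyruvate dehydrogenase, at 0.66 and 0.53 (adjusted p = 0.00696 and 0.0128). With each array's median of tested genes removed, or with cyclic loess, 1 of the 9 further glycolysis and sugar entry genes rose and 1 fell. Over all genes tested, as deposited, 18.2% rose and 6.83% fell. Among 20 tested regulators of T cell glycolysis, 4 rose and 3 fell. Myc, a driver of glycolysis after activation, was at 9.63 ± 0.08 in Tc17 WT and 9.72 ± 0.03 in Tc17 STAT3-/- (adjusted p = 0.490), and Txnip, an inhibitor of glucose uptake, was at 10.13 ± 0.16 and 9.84 ± 0.13 (adjusted p = 0.227). Chosen after the values were seen, Irf4, a transcription factor of activated T cells, fell by 0.48 ± 0.08 (adjusted p = 0.00428), and Sesn1 and Sesn2, stress-induced inhibitors of mTORC1, rose by 0.55 and 0.53 (adjusted p = 0.0103 and 0.00673). Also named after the values were seen, the remaining calls among these regulators were Mxd1 at -0.62, Foxo1 at -0.31, Max at 0.37 and Mlxip at 0.48. Over the 8 lists, 27 calls were made between the Tc17 genotypes, and 7 of them held under every alternative tried: Adm, Nos2, Rora, Slc2a6, Cited2, Hif1an and Pgm2. The other list genes named with a change between the Tc17 genotypes lost their call under at least 1 alternative. For Ep300, Irf4, Pdhb and Phkb this was leaving out Tc17 STAT3-/- replicate 1 (adjusted p = 0.0655, 0.0536, 0.0597 and 0.0591), and for Phka2, Sesn1 and Sesn2 leaving out Tc17 STAT3-/- replicate 2 (adjusted p = 0.0618, 0.0886 and 0.0638). In Tc1 cells none of the genes on the 8 lists passed the threshold between the genotypes, against 0.0608% of all genes.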

How the data were processed

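Gene expression was measured on 12 arrays. Each array has 1 deposited log2 value per probe set, which the authors made with RMA and Partek, per the submitters' processing notes, with no versions given there. That the scale is log2 was judged from the range of the values. RMA narrows differences near background. Of 41345 probe sets, the annotation gives 23521 exactly 1 gene symbol, 1814 several and 16010 none; the brightest of a gene was kept. Genes with at least 1 group mean of 5 or more were tested. From there, limma 3.58.1 (R 4.3.3; lmFit, contrasts.fit and eBayes) was fitted to 8 samples in 4 groups with 5 contrasts, two-sided, with Benjamini-Hochberg adjustment over all 9862 genes and a threshold of 0.05; the script was tested on simulated data. Intervals are 95% and unadjusted. For arrays the number of samples, 2 per group, limits the precision.

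The members and lists were chosen with earlier results of these data known. All 38 listed genes were named; array values were given for those called in at least 1 contrast; listed pathway genes were named where called with a log2 difference of at least 1, with Slc2a1, Slc2a3, Slc16a3, Pygb, Myc, Txnip and Stat3; others are said to be chosen later. Alternatives covered the use of the technical arrays, the replicate block, scaling, the dim filter, probe set choice, limma options and each sample left out. Fitting every probe set on its own was added after seeing the data. Promoter windows are RefSeq's (GRCm38.p6), of which all 33 matched genes had at least 1. Figures were drawn with Python 3.11.15 and matplotlib 3.10.9.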

Additional observations from a re-analysis of the deposited data

Results flagged for a closer look

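For 3 genes the genotype difference was not alike in the Tc17 and Tc1 conditions, by the interaction term of the limma fit. Pygm rose with loss of STAT3 by 2.25 in Tc17 and differed by 0.07 in Tc1, an interaction of 2.18 (adjusted p = 0.000132). Eno3 rose by 1.47 in Tc17 and differed by 0.06 in Tc1, an interaction of 1.42 (adjusted p = 0.00342). Hif1a, on its brighter probe set, fell by 0.89 in Tc17 and differed by 0.04 in Tc1, an interaction of -0.93 (adjusted p = 0.00499). On the dimmer probe set of Hif1a the interaction was -0.05 ± 0.34 (adjusted p = 0.939). With 2 samples per group, a search for a sample far from its group was not made.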

How the results depend on the processing

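Over 22 alternatives (21 for the interaction), none of the set's calls changed sign. Pygm and Eno3 kept their calls between the Tc17 genotypes and in the interaction under every alternative, as did Pygm between Tc17 WT and Tc1 WT. Hif1a lost all 3 calls only where its probe sets were averaged (-0.36, -0.49 and 0.16, adjusted p = 0.105, 0.197 and 0.454). The set had 8 genes called between the Tc17 genotypes (25.1% of all genes), 5 with no dim filter, when 22180 genes are tested (7.93%), 12 with limma's trend and robust options (27.2%) and 10 with the technical arrays left out (26.4%). Scaling changed the split of higher against lower there, 4 against 4 as deposited: 3 against 6 with each array's median of tested genes removed, with quantile normalization and with cyclic loess, and 4 against 2 with the median of all probe sets removed. Between Tc17 WT and Tc1 WT, 8 were called, 4 higher and 4 lower; the split was 5 against 2 (tested median), 2 against 5 (all probe sets), 5 against 3 (quantile) and 5 against 2 (loess), and the count was 4 with no dim filter (8.03% of all genes), 3 with only those groups fitted (15%), 12 with the trend and robust options (27.4%) and 11 with the technical arrays left out (26.6%) or joined to replicate 1 (26.0%), against 25.0% as deposited. The interaction had 3 calls (6.85% of all genes), and 5 with the technical array joined to replicate 1, the Tc17 WT technical array left out, the tested median removed, cyclic loess or the trend and robust options (9.55%, 8.62%, 6.51%, 6.29% and 8.87%), and 7 with all technical arrays left out (12.8%). It had 2 with probe sets averaged (6.61%). Between the STAT3-/- groups, 1 call became 0 with the technical array as a sample of its own. Leaving out each sample gave 4 to 8 calls between the Tc17 genotypes, 4 without either Tc17 STAT3-/- replicate, where the background fell to 10.1% and 9.60%. It gave 3 to 4 in the interaction, 2 to 9 between Tc17 WT and Tc1 WT, and 0 to 1 between the STAT3-/- groups. The Tc1 genotype contrast had 0 under each alternative. Of 22 alternatives, the genotype call in Tc17 was lost under 18 for Ldha, 11 for Hk2, 7 for P4ha2 and 1 each for Pfkm and Egln3, and the call between Tc17 WT and Tc1 WT under 11 for Gys1, 10 for Ldha, 8 for Hk2, 6 for Pfkm, 3 for Egln3 and 2 for Eno3.

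With a replicate block the counts were 11, 0, 3, 11 and 1 in the order of genotype in Tc17, genotype in Tc1, interaction, culture in WT and culture in STAT3-/-, beside 31.0%, 0.152%, 10.3%, 30.8% and 2.99% of all genes. The groups share 2 numbers, whose deviations correlated between 0.10 and 0.46 (0.00 to 0.17 with biological arrays only), so the numbers were not taken to pair the samples. Both genotypes were cultured together, and the labels do not say whether a number marks a shared culture; between the genotypes the correlation was 0.46 in Tc1 and 0.10 in Tc17. The technical arrays limit precision: over the tested genes, differences had an SD of 0.144 to 0.192 within pairs of biological arrays and 0.209 to 0.352 where the technical array replaced biological array 1, and the labels do not say which sample it repeats. On the pathway lists, 24 of 27 calls between the Tc17 genotypes, 19 of 29 between Tc17 WT and Tc1 WT and 7 of 8 in the interaction held without the Tc17 WT technical array.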

Other observations

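In both Tc1 groups the technical arrays read the set lower than the biological arrays, with a median further down than that of all genes. In Tc17 WT they also read the set lower, but with the same median of -0.16 over all genes. Of 32 tested genes, the technical array was the lowest of the 3 arrays of its group in 25 genes in Tc1 WT, 22 in Tc1 STAT3-/-, 23 in Tc17 WT and 5 in Tc17 STAT3-/-, against 50.4%, 30.0%, 63.2% and 40.1% of all tested genes. Their median difference from the mean of the biological arrays was -0.16, -0.11, -0.16 and 0.03 in the same order, against -0.05, 0.05, -0.16 and -0.01 for all genes.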
